A study of Mus musculus with 20 samples.

Results

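The 10 genes described here, *Slc6a20a*, *Slc6a13*, *Slc22a6*, *Ptgds*, *Apod*, *Aldh1a2*, *Igf2*, *Fmod*, *Lum* and *Fbln5*, are genes known from fibroblasts of the meninges and of the perivascular space, and they are 10 of the 47729 genes in the deposited count table. They were chosen by name with measured values of these libraries already known, so their levels and differences are given as a description and support nothing by themselves. The hippocampus is covered by the pia mater and carries vessels that enter from it, so bulk hippocampal RNA holds RNA of these border cells beside that of neurons and glia. In bulk samples, fewer cells of a type and less RNA per cell cannot be told apart.

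The libraries described here hold hippocampal RNA of male C57BL/6 mice, in 4 groups of 5 libraries. The study itself compared larger groups of mice and describes no young enriched group, so these libraries are not its full design. The 24mEE group was 24 months old and housed in an enriched environment, which for the old mice meant their last 2 months in larger cages equipped with running wheels. The 24mSC group was 24 months old and housed under standard conditions. The 5mEE group was 5 months old and enriched, with a duration not given in the sources used here, and the 5mSC group was 5 months old under standard conditions. All 4 groups shared strain, sex and tissue, and the labels name no genetic change. The study's methods describe RNA isolated individually from hippocampi of mice that were kept in 2 runs at separate times. The labels give neither these runs nor the sequencing run, a term of the study's own model. Neither kind of run could be entered in the fits, and their part in the differences was not tested. Sample titles carry a number for each library, but the labels do not say that it names a mouse. Replicate numbers here follow accession order and only name a library.

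Fibroblasts of the pia and arachnoid make collagens and small proteoglycans, carry transporters that move organic solutes between cerebrospinal fluid, blood and brain, and release signals such as retinoic acid and insulin-like growth factor 2. Perivascular fibroblasts lie along larger vessels and share much of this repertoire. Several of the 10 genes are not restricted to these cells in the brain: *Ptgds* and *Apod* are also made by oligodendrocytes, and *Fbln5* also by cells of the vessel wall.

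Library totals were between 10963348 and 34107138 counts, and 16692 genes passed the filter on low counts, among them all 10 genes. The 5mSC replicate 3 stood apart, with the fewest counts, a mitochondrial rRNA share of 26.8% (26.80% to 26.85% by Wilson's 95% limits) where no other library exceeded 1.82%, and the highest mean level of 13 choroid plexus genes (2.62 on the log2 scale of CPM, counts scaled to a common library size, against −0.05 to 1.60 elsewhere). The 5mSC replicate 4 was not apart in these measures but was the highest of the 20 libraries in 6 of the 10 genes. The member values that involve 5mSC were therefore also computed without both libraries, an alternative chosen after the data were seen, and are given where they differ. Markers of hippocampal neurons summed to 939 CPM in 5mSC replicate 3 and to between 1138 and 1662 CPM in the other libraries. Those of mature oligodendrocytes summed to 3145 CPM in 5mSC replicate 3 and to between 4155 and 7785 CPM in the others. The label of the gene group was compared with markers, and among 25 other meningeal genes 19 passed the filter. The forkhead factor *Foxc1* was at 12.8 CPM in 5mSC replicate 3 and between 2.61 and 4.85 CPM elsewhere. The collagen gene *Col1a1* of the fibroblast list was at 9.09 CPM in that library and between 3.54 and 7.0 CPM elsewhere. *Cdh1*, a cadherin of the arachnoid barrier, and *Bnc2* were at or below 0.83 CPM in every library except 5mSC replicate 3 (8.87 and 2.74 CPM). High values in that library were not particular to meningeal markers. *Chad*, a small leucine-rich proteoglycan, had 5.59 CPM there and at most 0.814 CPM elsewhere. The antisense transcript *Igf2os* had 7.45 CPM there and at most 0.62 CPM elsewhere.

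Promoter sequences are shown for 4 genes that stand for the patterns described below: *Slc6a20a* and *Slc22a6*, the pair whose levels followed each other most closely over all 20 libraries, and *Apod* and *Fbln5*, which were higher at 24 months. The sequences are the bases before the RefSeq transcription start in GRCm38.p6, on the strand of the gene and 5′ to 3′, without bases inside the annotated gene. They span chr9:123678886-123679082 (minus strand, *Slc6a20a*), chr19:8617746-8617995 (plus strand, *Slc22a6*), chr16:31314809-31315058 (minus strand, *Apod*) and chr12:101819120-101819369 (minus strand, *Fbln5*, the first of its RefSeq starts). Capitals mark GGGCGG or its reverse complement, the GC box.
Slc6a20a: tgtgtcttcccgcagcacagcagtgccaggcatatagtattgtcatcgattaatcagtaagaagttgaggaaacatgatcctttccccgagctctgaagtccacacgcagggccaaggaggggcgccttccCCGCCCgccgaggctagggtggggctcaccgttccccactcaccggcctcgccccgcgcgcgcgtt
Slc22a6: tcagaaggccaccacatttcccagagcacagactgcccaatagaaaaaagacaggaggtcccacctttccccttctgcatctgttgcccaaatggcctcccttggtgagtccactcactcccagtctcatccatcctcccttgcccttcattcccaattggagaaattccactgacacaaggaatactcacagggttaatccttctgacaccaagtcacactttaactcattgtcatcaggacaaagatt
Apod: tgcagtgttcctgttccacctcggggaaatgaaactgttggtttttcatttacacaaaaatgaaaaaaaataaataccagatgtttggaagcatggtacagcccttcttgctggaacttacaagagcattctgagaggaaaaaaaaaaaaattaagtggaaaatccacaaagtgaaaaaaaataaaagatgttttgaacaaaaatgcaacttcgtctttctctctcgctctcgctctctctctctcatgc
Fbln5: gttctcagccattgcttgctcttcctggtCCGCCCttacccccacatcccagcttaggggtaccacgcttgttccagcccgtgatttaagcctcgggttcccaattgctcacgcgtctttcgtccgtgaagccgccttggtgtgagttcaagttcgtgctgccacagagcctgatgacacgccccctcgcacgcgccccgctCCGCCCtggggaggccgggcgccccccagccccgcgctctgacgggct
Windows of 250 bases before the start were found for 9 of the 10 genes, 15 windows in all, since *Slc6a13*, *Igf2* and *Fbln5* have several starts (*Lum* had no entry). The GC box was present on either strand in 5 of the 15 windows, those of *Slc6a20a*, *Slc6a13*, *Igf2* and *Fbln5*, and in 32.7% of all 32851 RefSeq windows of the same length. The forkhead word GTAAACA, searched on both strands because *Foxc1* is a regulator of meningeal development, was in none of the 15 windows and in 3.17% of all windows. TATAAA was in none of the 15 and in 12.4% of all. Base composition varied widely, with 36.4% G and C in the *Apod* window and 77.6% in that of *Aldh1a2*.

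Between genes, levels were compared per kilobase of annotated exon. *Ptgds* and *Apod* were the most abundant, with 113 and 53.3 CPM per kb over the 20 libraries. Their means were close in 24mEE, at 71.4 and 68.1 CPM per kb, and far apart in 5mSC, at 212 and 46.2. *Igf2* followed with 3.99, then *Slc6a20a* with 2.01 and *Slc6a13* with 1.99, which did not differ beyond their spread over libraries (SD 0.866 and 0.673). *Lum*, *Aldh1a2*, *Fmod*, *Fbln5* and *Slc22a6* were at 1.64, 1.4, 1.21, 0.744 and 0.449 CPM per kb. This order is that of the pooled means, and in 24mEE *Fbln5* was at 0.993 and *Fmod* at 0.900. Counts per gene are not equally secure: 62.8% of the exon bases of *Igf2* lie on the same strand inside another gene model, Gm49394. Of the 50-base words of *Slc6a20a*, 26.7% occur in another gene, its neighbour *Slc6a20b* (15.3%) or Gm17120. In addition, 14.3% of the exon bases of *Slc6a20a* overlap genes on the opposite strand, *Ccr9*, Gm17120 and Gm17200. *Slc6a20b* itself was at most 0.126 CPM in 19 libraries and 1.64 CPM in 5mSC replicate 3, and the antisense transcript *Igf2os* was at most 0.62 CPM and 7.45 CPM in the same libraries. The library kit did not mark strand.

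**Figure D1:**
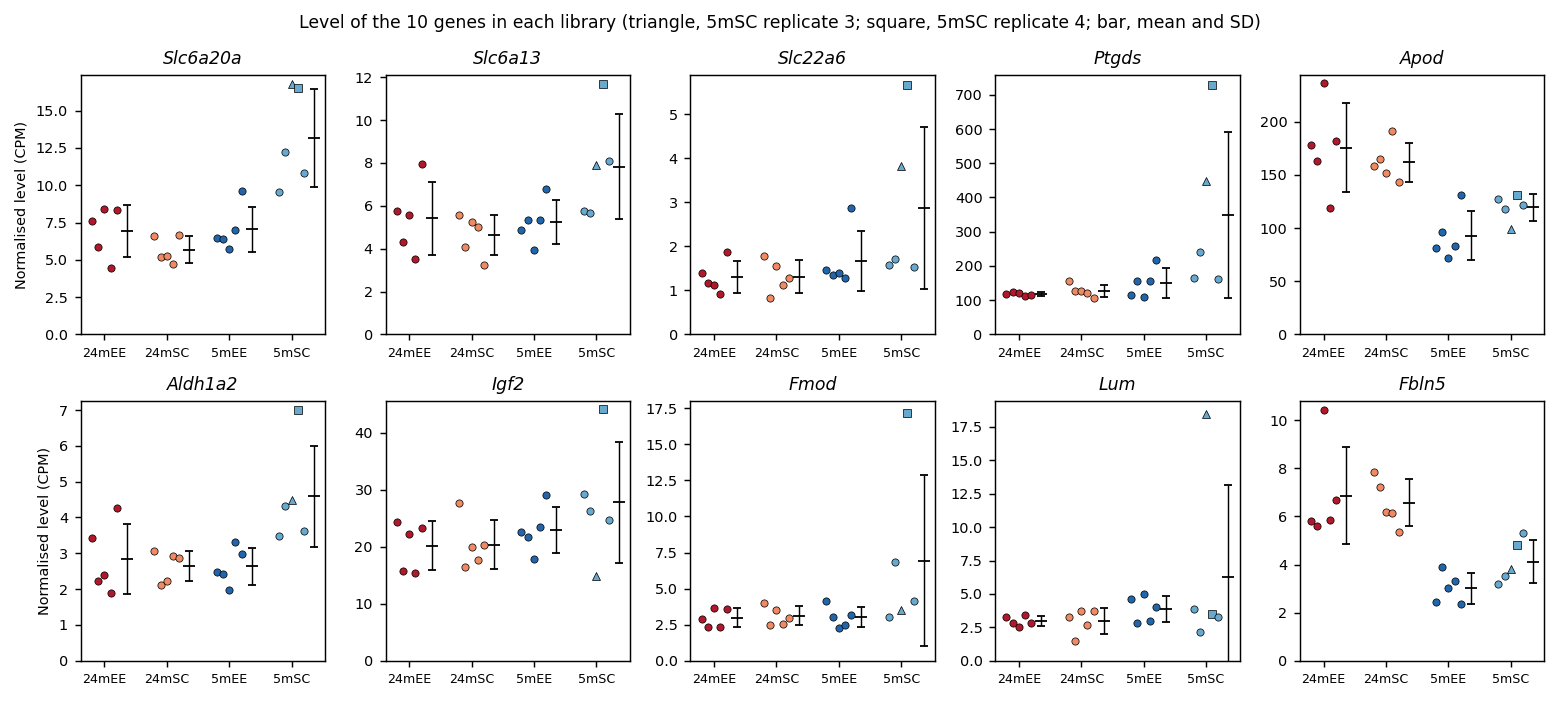
Normalised level (CPM, vertical axes starting at 0) of each of the 10 genes in every library, with one point per library, groups along the horizontal axis, and the mean and SD of 5 libraries beside each group (the SD bar of *Lum* in 5mSC runs below 0 and is cut there). The 5mSC group has the widest spread for *Ptgds* (163 to 728 CPM) and *Fmod* (3.06 to 17.2 CPM), while all 10 libraries of 24 months lie above all 10 of 5 months for *Fbln5*.

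The 3 transporters had their highest group mean in 5mSC. *Slc6a20a*, a carrier of proline and other imino acids, had 4.70, 5.17, 5.29, 6.58 and 6.66 CPM in 24mSC against 9.57, 10.8, 12.2, 16.5 and 16.8 CPM in 5mSC. The groups did not overlap, and they did not overlap either when 5mSC replicates 3 and 4, the 2 highest, were left out. The enriched groups overlapped, with 4.43, 5.89, 7.61, 8.33 and 8.38 CPM in 24mEE against 5.73, 6.43, 6.44, 6.99 and 9.64 CPM in 5mEE. The log2 fold change was −1.20 ± 0.193 (SE) for 24mSC minus 5mSC and −0.94 without the 2 libraries, and it was −0.03 ± 0.19 for 24mEE minus 5mEE.

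*Slc6a13*, a transporter of GABA and taurine found in the leptomeninges and not chiefly in neurons, had 3.26, 4.08, 5.02, 5.25 and 5.56 CPM in 24mSC against 5.67, 5.76, 7.89, 8.11 and 11.7 CPM in 5mSC. These groups were apart by a narrow margin, and the log2 fold change was −0.76 ± 0.225, or −0.51 without 5mSC replicates 3 and 4. *Slc22a6*, the organic anion transporter OAT1, had the lowest level of the 10 genes, with 0.827, 1.13, 1.29, 1.55 and 1.78 CPM in 24mSC against 1.53, 1.58, 1.71, 3.83 and 5.66 CPM in 5mSC. Of the 5mSC libraries 3 lay within the 24mSC range, and the log2 fold change of −1.11 ± 0.359 was −0.28 once replicates 3 and 4 were left out. Every library was above the level that 3 counts give, which was at most 0.274 CPM.

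The 2 lipocalins differed in the sign of their age difference. *Ptgds*, the prostaglandin D2 synthase and one of the chief proteins of cerebrospinal fluid, had 106, 120, 126, 128 and 155 CPM in 24mSC against 163, 165, 240, 448 and 728 CPM in 5mSC. The 24mSC libraries were close together and the 5mSC libraries spread widely, with replicates 3 and 4 at the top. The log2 fold change was −1.46 ± 0.309 with all libraries and −0.58 without these 2, although the groups still did not overlap. In the enriched groups *Ptgds* had 111, 116, 117, 122 and 124 CPM in 24mEE against 108, 114, 156, 157 and 217 CPM in 5mEE, a log2 fold change of −0.35 ± 0.303 with overlapping ranges.

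*Apod*, apolipoprotein D, a carrier of small lipids, had 119, 163, 178, 182 and 236 CPM in 24mEE against 71.9, 81.5, 83.5, 96.6 and 131 CPM in 5mEE. Only the lowest 24mEE library lay within the 5mEE range, and the log2 fold change was 0.92 ± 0.157. Under standard housing the values were 143, 152, 158, 165 and 191 CPM in 24mSC against 98.7, 118, 122, 127 and 131 CPM in 5mSC, with no overlap and a log2 fold change of 0.44 ± 0.156, or 0.40 without 5mSC replicates 3 and 4. The 2 5mSC libraries that were high in most of the 10 genes were not high in *Apod*: replicate 3 had the lowest 5mSC value and replicate 4 the highest by a small margin. Over the same libraries 12 markers of mature oligodendrocytes had a median log2 fold change of 0.06 for 24mEE minus 5mEE and 0.17 for 24mSC minus 5mSC, and none of them passed the test. The part of oligodendrocytes in the level of *Apod* was not tested.

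The 2 signal genes also had their highest group mean in 5mSC. *Aldh1a2* encodes the retinaldehyde dehydrogenase by which the meninges make retinoic acid, and it had 2.12, 2.24, 2.88, 2.92 and 3.06 CPM in 24mSC against 3.49, 3.63, 4.33, 4.49 and 7.0 CPM in 5mSC. The groups did not overlap, with a log2 fold change of −0.80 ± 0.229, or −0.53 without replicates 3 and 4. It was also the only one of the 10 genes whose 5-month groups were apart, with 1.98, 2.43, 2.47, 2.97 and 3.32 CPM in 5mEE, all below the 5mSC libraries. *Igf2*, the growth factor, had 16.5, 17.6, 19.9, 20.3 and 27.6 CPM in 24mSC against 14.8, 24.6, 26.2, 29.2 and 44.1 CPM in 5mSC. Here 5mSC replicate 3, high in most other genes, had the lowest value of all 20 libraries and replicate 4 the highest, and the log2 fold change was −0.47 ± 0.21, or −0.40 without both.

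The 3 matrix genes differed from each other. *Fmod*, fibromodulin, a proteoglycan that binds collagen fibrils, had 2.48, 2.54, 2.97, 3.50 and 4.03 CPM in 24mSC against 3.06, 3.51, 4.13, 6.83 and 17.2 CPM in 5mSC. The highest value was that of replicate 4, and the log2 fold change was −1.18 ± 0.358 with all libraries, −0.50 without replicate 4 and −0.56 without replicates 3 and 4. It was −1.34 without replicate 3 and −1.61 without replicates 1 and 3, and *Fmod* was called in both of these fits. *Lum*, lumican, a close relative of fibromodulin, had 18.5 CPM in 5mSC replicate 3 and 2.13 to 3.89 CPM in the other 4 libraries of that group, against 1.45 to 3.74 CPM in 24mSC. Its log2 fold change was −0.99 ± 0.429 with all libraries, −0.13 without replicate 3 and −0.09 without replicates 3 and 4.

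*Fbln5*, fibulin 5, which organises elastic fibres, had 5.59, 5.80, 5.85, 6.68 and 10.4 CPM in 24mEE against 2.37, 2.44, 3.04, 3.32 and 3.91 CPM in 5mEE. Under standard housing it had 5.37, 6.16, 6.19, 7.23 and 7.85 CPM in 24mSC against 3.17, 3.53, 3.83, 4.80 and 5.29 CPM in 5mSC. All 10 libraries of 24 months were thus above all 10 of 5 months, a separation in this direction that 0.168% of the 16692 tested genes showed. The log2 fold changes were 1.19 ± 0.193 for 24mEE minus 5mEE and 0.66 ± 0.192 for 24mSC minus 5mSC, and the second was 0.69 without 5mSC replicates 3 and 4. *Fbln5* and *Apod* were the members with positive differences in both age comparisons, beside 8 members that were negative in 24mSC minus 5mSC.

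For ageing under standard housing, edgeR's quasi-likelihood test over all genes called 2 members lower in 24mSC, *Slc6a20a* and *Ptgds*, and none higher. The background was 0.803% of genes called in either direction and 0.335% called lower. The other 8 members did not pass. Group ranges did not overlap in 4 members with lower 24mSC values, against 1.56% of all genes, and in 2 with higher 24mSC values, against 1.68%. Since the members were chosen with this contrast known, nothing is read from these counts. The median log2 fold change of the 10 was −0.89, and that of all genes −0.011. Without 5mSC replicates 3 and 4 only *Slc6a20a* was called, without replicates 1 and 3 *Slc6a20a*, *Ptgds* and *Fmod* were, and with only the 24mSC and 5mSC libraries in the fit none was.

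For ageing under enrichment, the test called *Apod* and *Fbln5* higher in 24mEE and no member lower, with a background of 0.108% of genes in either direction and 0.0839% higher. The ranges of 24mEE and 5mEE were apart in 1 member, *Fbln5*, against 1.63% of genes. The other 8 members had log2 fold changes between −0.38 and 0.11, and the median of the 10 was −0.03. Leaving out single libraries removed 1 or both calls in 8 of 10 cases. *Fbln5* was not called without 24mEE replicate 5 or without 5mEE replicates 1, 3 or 5, each left out in turn, and *Apod* was not called without 24mEE replicates 1, 3 or 5 or 5mEE replicates 1, 2, 3 or 4.

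**Figure D2:**
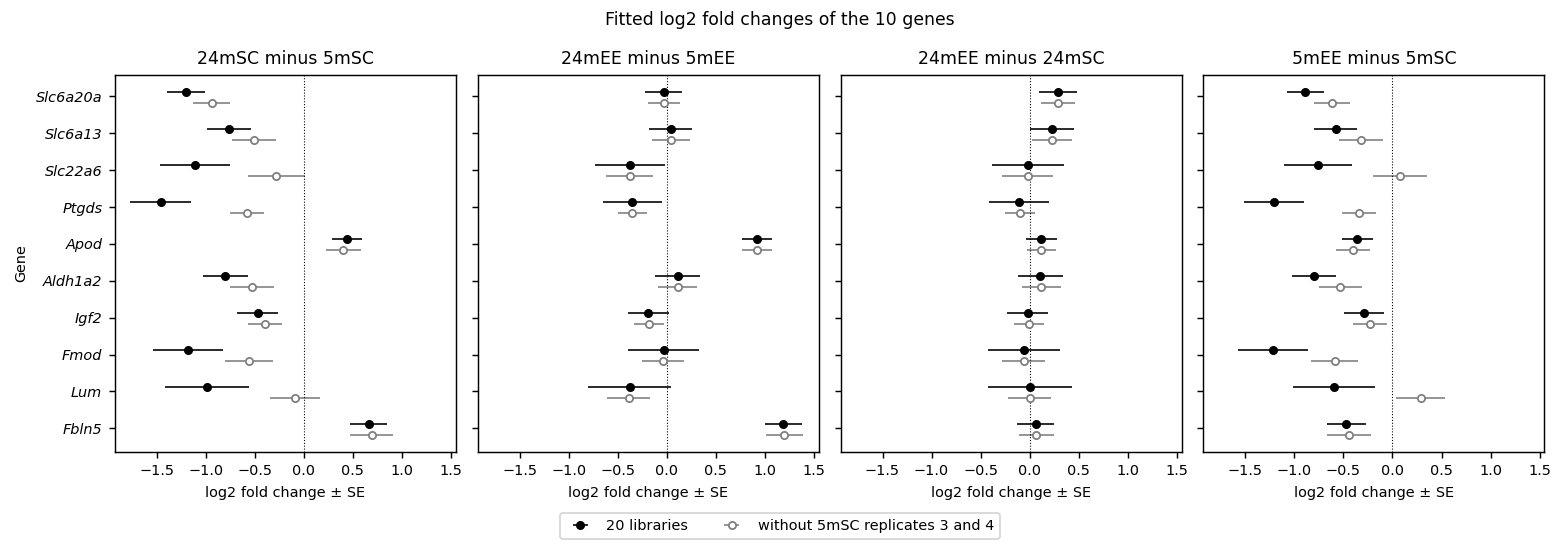
Fitted log2 fold change and SE of each gene in the 4 comparisons, with all 20 libraries (filled) and without 5mSC replicates 3 and 4 (open). For 24mSC minus 5mSC, *Ptgds* is at −1.46 and −0.58 and *Lum* at −0.99 and −0.09, while *Fbln5* is at 0.66 and 0.69.

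For enrichment at 24 months, the test called 0 of the 10 members and 0% of all genes. Log2 fold changes of 24mEE minus 24mSC lay between −0.11 and 0.29, with 5 members on each side of 0, and every member's ranges overlapped. No member was under an unadjusted p of 0.05, while 1037 of all genes were, and DESeq2's Wald test called no member and 26 genes. *Slc6a20a* had the largest value, 0.29 ± 0.194, with 4.43 to 8.38 CPM in 24mEE against 4.70 to 6.66 CPM in 24mSC.

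For enrichment at 5 months, the test again called 0 members and 0% of genes, with 8 members and 2759 genes under an unadjusted p of 0.05, while DESeq2's Wald test called *Slc6a20a* and *Ptgds* among 28 genes. All 10 members had negative log2 fold changes for 5mEE minus 5mSC, between −1.22 for *Fmod* and −0.29 for *Igf2*, with a median of −0.68 beside −0.021 for all genes. The ranges were apart in *Aldh1a2* alone, against 0.875% of genes with 5mEE below 5mSC. Without 5mSC replicates 3 and 4, *Lum* and *Slc22a6* were at 0.29 and 0.08 and the other 8 remained negative, from −0.62 for *Slc6a20a* to −0.23 for *Igf2*. This comparison and that of 24mSC with 5mSC share the same 5mSC libraries.

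The interaction of age and housing, which asks if the difference between 24 and 5 months was the same in both housings, was called in 0 members and 0% of genes, with 6 members and 1336 genes under an unadjusted p of 0.05 (DESeq2 was not run for this term). All 10 members were positive with all libraries, from 0.28 ± 0.296 for *Igf2* to 1.18 ± 0.27 for *Slc6a20a*. Without 5mSC replicates 3 and 4, *Lum* and *Slc22a6* were negative, at −0.29 and −0.10, and *Ptgds* was at 0.23 where all libraries gave 1.11. Without replicates 1 and 3 *Lum* was at −0.35. The members called under standard housing and under enrichment were not the same, but no member's age difference was called different between housings.

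**Figure D3:**
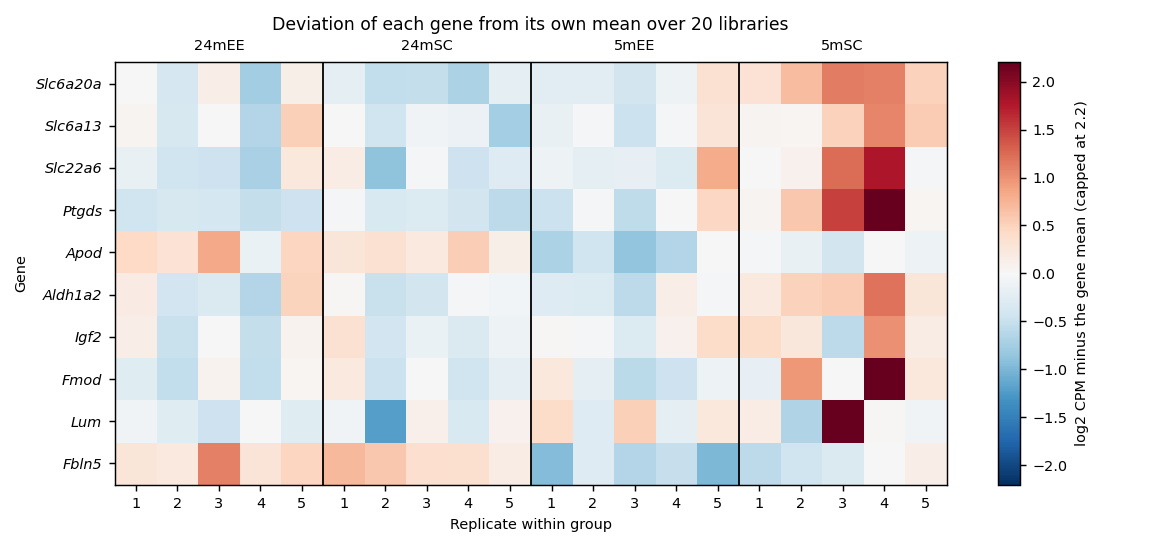
Heat map of log2 CPM minus each gene's mean over the 20 libraries, with genes as rows and libraries as columns grouped as 24mEE, 24mSC, 5mEE and 5mSC, capped at 2.2 in either direction. The darkest column is 5mSC replicate 4, the library highest in 6 of the 10 genes, while *Lum* is darkest in 5mSC replicate 3 and *Fbln5* is above its mean in the 24-month columns.

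Within groups, libraries that were high in one member were often high in others. The correlation of deviations from the group means was positive in 38 of the 45 pairs of members over 20 libraries, with a median Spearman coefficient of 0.34. Among *Slc6a20a*, *Slc6a13*, *Slc22a6*, *Ptgds*, *Aldh1a2*, *Igf2* and *Fmod*, a set chosen after these values were seen, the 21 pairs ran from 0.29 to 0.77 with a median of 0.58. *Slc6a20a* and *Slc22a6* were closest, and without 5mSC replicates 1 and 3 the closest pair was *Slc6a20a* and *Igf2* at 0.91. *Lum* and *Fbln5* did not follow, with median coefficients to the other members of −0.03 and 0.11, and the lowest pair, at −0.54, was *Apod* and *Lum*. Points of such a correlation share a library, its depth and its dissection, so the coefficients describe these libraries only.

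The SD within groups was widest in 5mSC for 8 of the 10 members and the coefficient of variation for 6. In 5mSC the coefficient of variation was 110% for *Lum*, 85.2% for *Fmod*, 69.3% for *Ptgds* and 64.2% for *Slc22a6*. In contrast, it was 4.48% for *Ptgds* in 24mEE and 14.1% in 24mSC. Outside 5mSC, the 3 libraries with the highest mean level of the 10 genes were 24mEE replicate 5, 5mEE replicate 5 and 24mSC replicate 1, at 3.43, 3.40 and 3.39 on the log2 CPM scale. The range over the 20 libraries was 2.83 to 4.32, and it was 2.83 to 3.44 without 5mSC replicates 3 and 4.

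Among the 10 genes whose deviations were most like the mean of the 10 members over 20 libraries were *Mrc1* (0.86), a mannose receptor of macrophages at brain borders, *Lepr* (0.85), the leptin receptor, and *Slc13a4* (0.81), a sulphate transporter on the list of other meningeal genes. *Dab2*, *Cp*, *Galnt15*, *Proser1*, *Kdm4a* and *Colec12* were also among these 10, whose coefficients ran down to 0.75. Without 5mSC replicates 3 and 4 the 10 coefficients lay between 0.66 and 0.82. *Slc13a4* had 10.5 CPM in 5mSC replicate 4 and 10.4 CPM in replicate 3, against 1.70 to 4.39 CPM in all other libraries. *Mrc1* had 4.45 CPM in 5mSC replicate 4, within the 1.77 to 4.84 CPM of the rest.

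Other genes of the same cells were then counted, from lists of genes that are no members. Of the 25 other meningeal genes 19 were tested, and none passed in any of the 4 comparisons, although 17 of the 19 were negative in 24mSC minus 5mSC (median −0.39) and 17 in 5mEE minus 5mSC (median −0.51), with all 5mSC libraries included. *Slc13a4* came nearest in 24mSC minus 5mSC, with a log2 fold change of −1.42 ± 0.356 (edgeR adjusted p = 0.0543). Of 26 other fibroblast genes 24 were tested and none passed, with 17 negative in 24mSC minus 5mSC (median −0.31) and *Col3a1*, a fibrillar collagen, at −1.37 ± 0.375 (edgeR adjusted p = 0.0701). In 24mEE minus 5mEE the medians of both lists were 0.04 and −0.08. In deviations from the group means, the Spearman coefficient to the mean of the members was 0.80 for the meningeal and 0.47 for the fibroblast list. Without 5mSC replicates 3 and 4 these coefficients were 0.70 and 0.13, so the fibroblast list followed the members little outside these 2 libraries. The 5mSC replicates 3 and 4 were the highest of all libraries in the mean level of both lists, at 2.44 and 2.15 for the meningeal list, where the others were 1.22 to 1.66, and at 3.02 and 2.63 for the fibroblast list, where the others were 2.09 to 2.56.

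**Figure D4:**
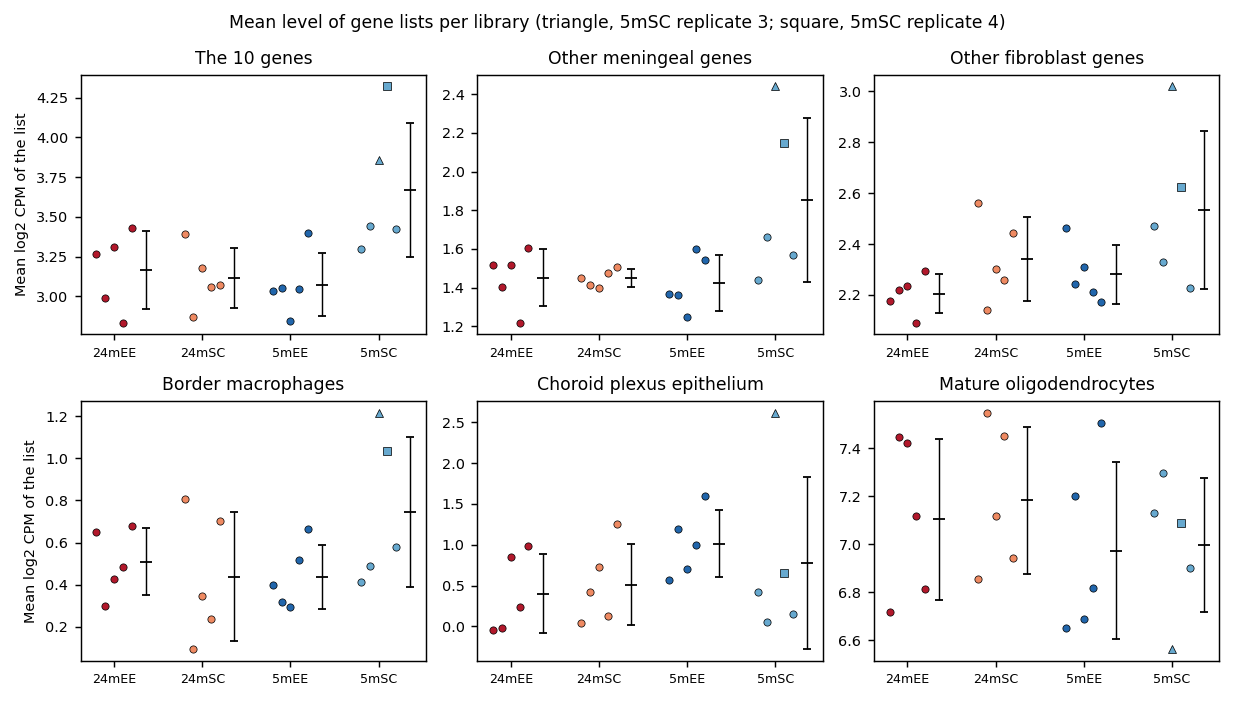
Mean log2 CPM of 6 gene lists in each library by group, one point per library, with mean and SD of 5 libraries (5mSC replicate 3 as a triangle, replicate 4 as a square). Replicates 3 and 4 are the highest in the 10 genes, other meningeal genes, other fibroblast genes and border macrophages, and only replicate 3 is highest in the choroid plexus list, at 2.62. Among the lists not drawn, replicate 3 is also the highest in mural cell, small leucine-rich proteoglycan, elastic fibre, IGF, prostaglandin and mitochondrial rRNA genes. It is not the highest in the rest, such as endothelium and hippocampal neurons.

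Markers of neighbouring cells were counted beside these. Of 13 mural cell genes 1 passed, *Tagln*, transgelin of smooth muscle, which fell in 24mSC with a log2 fold change of −0.97 ± 0.195 against 5mSC (edgeR adjusted p = 0.0239). None of 12 endothelial genes passed, and their median was 0.00. The 8 genes of border macrophages summed to 20.3 to 34.5 CPM in 24mSC against 23.7 to 35.1 CPM in 5mSC without replicate 3. Replicate 3 had 76.1 CPM, of which the single gene *Stab1* gave 63.7 CPM, while *Mrc1*, *Cbr2* and *Pf4* had 4.49, 1.31 and 1.21 CPM. Over all libraries 6 of the 8 were negative in 24mSC minus 5mSC, with none passing. The 17 choroid plexus genes summed to 42.2 to 90.3 CPM in 24mSC against 39.9 to 67.8 CPM in 5mSC without replicate 3, which had 407 CPM. With all 20 libraries, replicate 3 included, the 13 of them that were tested had a median log2 fold change of −0.59 in 24mSC minus 5mSC. Without replicate 3 their mean log2 CPM was 0.05 to 0.66 in 5mSC, within the 0.04 to 1.25 of 24mSC. In 24mEE minus 5mEE the median was −0.64, and again none passed in either comparison. With the choroid plexus mean as a covariate, *Slc6a20a* and *Ptgds* were called in 24mSC minus 5mSC, among 296 genes (134 without the covariate). Both were also called in 5mEE minus 5mSC, where this fit called 312 of all genes and the fit without the covariate 0. The covariate was 2.62 in 5mSC replicate 3 and at most 1.60 in every other library. The part of attached meninges or of choroid plexus in the member levels was not tested.

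The other genes of the members' pathways were counted in the same way. None of 16 tested retinoic acid genes passed in any comparison, and in 24mSC minus 5mSC 11 of the 16 were negative with a median of −0.27. Nor in 24mSC minus 5mSC did any of 12 tested genes of the IGF pathway, with *Igfbp5*, a binding protein, at 0.56 ± 0.154 (edgeR adjusted p = 0.0698), or of 12 prostaglandin genes, with *Ptgs1*, a cyclooxygenase, at 0.38 ± 0.0912 (adjusted p = 0.0514). Among 16 elastic fibre genes the nearest was *Ltbp3* at 0.28 ± 0.0706 (adjusted p = 0.0577), and 13 of the 16 were negative. Of 8 small leucine-rich proteoglycans 7 were negative with a median of −0.17, of 9 other SLC6 transporters 7 were positive with a median of 0.20, and of 10 organic ion transporters 6 were positive with a median of 0.09, none passing. The nearest of these were *Chad* at −2.09 ± 0.663 (adjusted p = 0.1), which had 5.59 CPM in 5mSC replicate 3 and at most 0.814 CPM in every other library, *Slc6a6*, a taurine transporter, at 0.36 ± 0.0994 (adjusted p = 0.0722), and *Slc22a3*, an organic cation transporter, at 1.20 ± 0.335 (adjusted p = 0.0722).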

How the data were processed

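Hippocampal RNA was sequenced as single-end reads from TruSeq v2 libraries, which do not mark strand. The deposited values are counts of reads per gene; per the labels, the authors used STAR 2.4.1d and featureCounts 1.4.6-p4 on GRCm38. A deposited RPKM table was not used. Identifiers were matched to GENCODE vM21 (99.1% of 47729). Counts were scaled with TMM, filtered (count of 10, total of 15), and fitted in 1 model of 4 groups, with no term for the sequencing run that the study's own model had, with edgeR 4.0.16 (quasi-likelihood, R 4.3.3). Calls had a Benjamini-Hochberg adjusted p under 0.05 over all 16692 genes. The procedure was tested on simulated data. Alternatives included DESeq2 1.42.0, other filters, 2-group fits and left-out libraries. Percentages and floors cover counting error only.

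The members and lists were chosen with earlier results of these data known. Named genes were the 10 members, from each other list the passing genes with the smallest p or else the nearest one, and the 10 non-members with the highest Spearman coefficient to the mean standardised member level (deviations from group means, mean log2 CPM of at least 1). Only a selection of the nearest genes is printed, and some are not reported here.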

Additional observations from a re-analysis of the deposited data

Results flagged for a closer look

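Both ends of each group were looked at. In 5 of the 40 combinations of member and group, the highest of the 5 libraries stood far from the others by Dixon's criterion (critical value 0.71). Of these, 3 were in 5mSC: *Aldh1a2* at 7.0 CPM in replicate 4 (others 3.49 to 4.49), *Fmod* at 17.2 CPM in replicate 4 (others 3.06 to 6.83) and *Lum* at 18.5 CPM in replicate 3 (others 2.13 to 3.89). In 5mEE, *Slc22a6* had 2.88 CPM in replicate 5 (others 1.28 to 1.47). In 24mEE, *Fbln5* had 10.4 CPM in replicate 3 (others 5.59 to 6.68). Replicate 5 of 5mEE was also highest of its group in *Ptgds*, *Slc6a20a*, *Slc6a13*, *Igf2* and *Apod*. The cause was not tested.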

How the results depend on the processing

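No paired analysis was possible because the labels give no replicate numbers shared between groups. Of 2 members called in 24mSC minus 5mSC, DESeq2's Wald test called 5, the fit of the 2 groups alone 0, and the fit without 5mSC replicates 3 and 4 (chosen after seeing the data) 1, while that without 5mSC replicates 1 and 3 called 3. Leaving out single libraries gave 1 to 5 members, with *Slc6a20a* called each time and *Ptgds* lost without any one 24mSC library, and 5 called without 5mSC replicate 2. In 24mEE minus 5mEE the same gave 0 to 2 members of 2. In 5mEE minus 5mSC, where 0 were called, DESeq2 and the choroid plexus covariate called 2 each, among 28 and 312 of all genes. In 24mEE minus 24mSC and the interaction no alternative that was run called a member.

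Over all genes the counts moved more: 134 in 24mSC minus 5mSC against 712 with DESeq2, 59 without a filter, 3 with 2 groups, 363 without 5mSC replicates 1 and 3, 303 without 3 and 4, 296 with the covariate and 30 to 1127 with 1 library left out, and 18 in 24mEE minus 5mEE against 35, 9, 52, 97, 50, 34 and 3 to 12. In 24mEE minus 24mSC, where 0 genes were called, the 2-group fit called 187. No member that was called turned its direction under any alternative. Fold changes of all members, called or not, were compared, 380 without and 400 with single libraries left out. Of these, 15 and 4 moved by more than the replicate SD. Signs did turn in members that were not called. In 5mEE minus 5mSC, *Lum* and *Slc22a6* were at −0.60 and −0.76 with all libraries and at 0.29 and 0.08 without 5mSC replicates 3 and 4. Mean CPM with DESeq2 size factors stayed within 1 SD for all 40 values. The median member coefficient of 0.34 was 0.50 without 5mSC replicates 1 and 3, 0.35 without 3 and 4 and 0.43 as Pearson. Depth limits *Slc22a6* most. The causes were not tested.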

Other observations

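No marker of hippocampal neurons or of neocortex passed the test in any comparison. The 10 neuronal markers had a median log2 fold change of 0.35 in 24mEE minus 24mSC with 9 of 10 positive, and the 8 neocortical markers one of −0.39 with 8 of 8 negative. In 5mEE minus 5mSC the medians were 0.23 for the neuronal markers, with 9 of 10 positive, and −0.12 for the neocortical ones, with 6 of 8 negative. The blood genes summed to 231 CPM in 24mSC replicate 1, where the median of that group was 29.6 CPM. That library was named above among those with the highest mean level of the members outside 5mSC. *Lcn2*, a lipocalin of the inflammatory response, had a log2 fold change of 2.93 ± 0.952 in 24mEE minus 5mEE (edgeR adjusted p = 0.599).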
